A study of Xenopus laevis with 3 samples.

Results

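The genes described here encode enzymes that cut the extracellular matrix, the inhibitors that hold these enzymes in check, and the enzymes that modify and crosslink collagen. They were chosen by symbol, with earlier results of these data known. An Xl-PSID (an *X. laevis* probe set of the Affymetrix array) was a member where the platform annotation gave it a single gene symbol of the families *mmp*, *timp*, *adam*, *adamts*, *serpin*, cathepsin (*cts*), *lox* and *loxl*, *plod*, *p4ha*, *fap*, *bmp1* and *tll*, *furin* and *pcsk*, *htra*, *plau*, *plg* and *tgm*. This rule found 131 Xl-PSIDs of 74 genes, out of 15505 Xl-PSIDs of 9271 genes with a single symbol. A further 16851 Xl-PSIDs of the array had no symbol and 279 had several. A gene absent from the members may therefore still be on the array. Another 2 Xl-PSIDs carried a member symbol beside a further symbol (one *mmp24* with *mmp14*, one both homeologs of *pcsk5*) and were left out. No Xl-PSID with a single symbol matched *plau* or *plg*.

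The tissue was whole inner ear from *X. laevis* larvae, staged between 50 and 52, aged 15 to 21 days after fertilization and without any treatment, a group written *s50*. Pools of 15, 38 and 24 animals gave the arrays s50_1, s50_2 and s50_3, with labelling from 1, 1 and 0.7 µg of total RNA. With a single group of 3 pooled samples no comparison between conditions could be made, and the values below describe this stage with the spread between pools. The deposited values are log2 intensities made with GCRMA, and an Xl-PSID is called detected at a mean of at least 4 over the 3 arrays. Each error is the SD over 3 arrays.

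Matrix metalloproteinases (MMPs), ADAM, ADAMTS and tolloid enzymes are zinc proteases that act on collagens, proteoglycans and cell surface proteins, and tissue inhibitors of metalloproteinases (TIMPs) block MMPs directly. Most MMPs are made as inactive precursors, and membrane-type MMPs are activated inside the cell by furin-like convertases. Cathepsins act mainly in the lysosome. Serpins trap serine proteases, although some have lost that function. Lysyl oxidases join collagen and elastin chains outside the cell, after prolyl and lysyl hydroxylases have modified collagen in the endoplasmic reticulum. In the tadpole, several MMPs are known for tissue remodelling under thyroid hormone at metamorphosis.

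Markers of the ear and its capsule were detected. The gap junction gene *gjb2* had 14.61 ± 0.17 and the unconventional myosin gene *myo6* of hair cells, the single hair cell marker measured of 12 listed, had 12.65 ± 0.44. All 7 measured cartilage markers were detected, with a median of 14.62. So were all 7 of fibroblasts and perichondrium, with a median of 12.19, and all 3 of endothelium. Among these, *twist1* of the fibroblast list passed the threshold on s50_1 alone, with 7.49, 3.51 and 2.33. Of the other lists, 8 of 9 neuronal, 3 of 4 Schwann cell, 7 of 9 skeletal muscle, 6 of 7 erythroid, 6 of 11 epidermal, 5 of 8 leukocyte, 1 of 3 bone and 1 of 7 liver and plasma markers were detected. Over all genes, 80.5% were detected. The median of all Xl-PSIDs lay between 7.45 and 7.53 on the 3 arrays. In whole inner ear tissue, fewer cells of a type and less RNA per cell cannot be told apart.

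The members were spread over the whole scale of the arrays. Of the 74 genes, each represented by its brightest Xl-PSID, 52 (70.3%) were detected, while the share over all genes was 80.5%. By Xl-PSIDs, 69 of 131 members (52.7%) and 73.3% of all with a single symbol were detected. The lower quartile of the member genes was 3.16 and their upper quartile 12.21, against 6.07 and 11.40 for all genes. Their median was 8.66 against 9.64. At the bright end, 20 member genes (27.0%) had a mean of at least 12, against 17% of all genes. At the dark end, 40 member Xl-PSIDs (30.5%) stayed below 2.5 on every array, against 19.1% of all with a single symbol. These values describe both sets, and no test was made since the members had been chosen with results of these arrays known. A brighter Xl-PSID is not proof of a more abundant transcript, because probes differ in how well they bind.

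**Figure D1:**
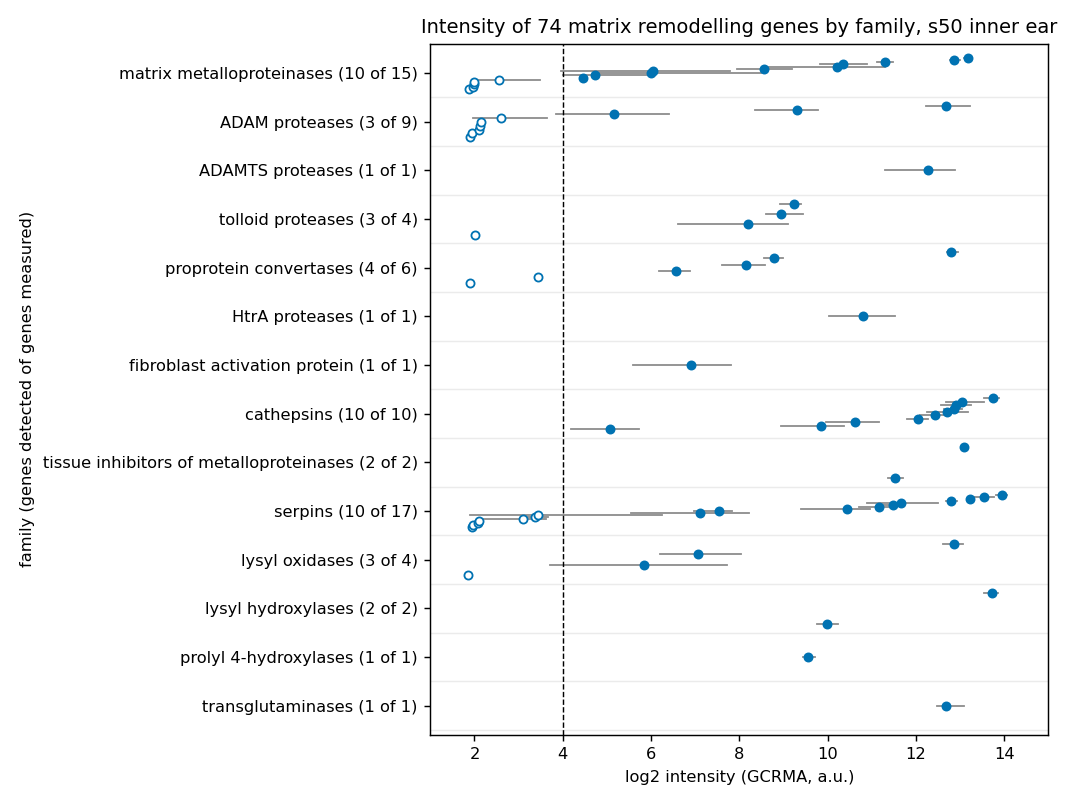
Log2 intensity (x axis, GCRMA, arbitrary units) of the 74 member genes by family (y axis, with the number detected of the number measured). Points are means of the 3 *s50* arrays, lines run between the lowest and highest array, open points are not detected, and the dashed line is the threshold of 4. All 10 cathepsin genes lay above the threshold, while 6 of 9 ADAM genes lay below it. The share detected over all genes was 80.5%.

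MMPs covered nearly the whole scale, and the pools lay close together for the brightest of them. Of 15 MMP genes, 10 (66.7%, against 80.5% of all genes) were detected, with means of 4.47 to 13.19. The gelatinase gene *mmp2*, whose product cleaves denatured collagen and type IV collagen, had 13.22, 13.25 and 13.09 on s50_1, s50_2 and s50_3. The membrane-type gene *mmp14*, whose product activates the precursor of MMP2, had 13.01, 12.78 and 12.79. These pools lay within 0.23 of each other for both genes. Another membrane-type gene, *mmp15*, had 11.49, 11.29 and 11.12, and *mmp28*, the gene of epilysin, had 9.83, 10.89 and 10.30 on its brightest Xl-PSID. A further membrane-type gene, *mmp16*, had 8.55 ± 0.62. Between this level and the threshold lay *mmp13* and *mmp7*, described below with the most variable members, and *mmp21*, known for its part in left-right patterning. The pools of *mmp21* had 4.01, 4.11 and 6.05, so that s50_3 alone was clearly above the threshold.

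The MMPs not detected were *mmp1*, *mmp3*, *mmp8*, *mmp9.2* and *mmp11*, with means of 1.88 to 2.57. They include the interstitial collagenase *mmp1*, the neutrophil collagenase *mmp8* and stromelysin-3 (*mmp11*), a thyroid hormone response gene of the tadpole. The intensity of *mmp11* was 1.98 ± 0.02, and no pool stood above the floor. For *mmp1* the pool s50_3 stood at 3.48, while s50_1 and s50_2 were at 2.10 and 2.12. At the threshold, *mmp13l* was called detected through its S Xl-PSID at 4.46, 4.47 and 4.47, whereas its 3 L Xl-PSIDs had means of 1.85 to 3.19. Its pools were as close together as those of Xl-PSIDs at the floor, where the 40 dark members had a median range of 0.034. Among all 474 Xl-PSIDs with a symbol at means of 4 to 5, 7 (1.48%) had a range below 0.05, and 2 of these 7 were the members *mmp13l.S* and one for *bmp1.S*. Detection of *mmp13l* is therefore uncertain.

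Several MMP genes are neighbours on both subgenomes, and their intensities differed. In the gene order of the RefSeq table, *mmp3.L*, *mmp7.L*, *mmp8.L* and *mmp13l.L* lie together. Of these 4, only *mmp7.L* was detected, at 6.01 ± 2.14 on its brighter Xl-PSID. In the matching run of the S subgenome, *mmp13.S* was detected at 6.04 ± 1.93 and *mmp13l.S* at 4.47 ± 0.01, while *mmp8.S* and *mmp1.S* were not. The same was seen for neighbouring serpins. Among *serpina6.L*, *serpina3.L*, *serpina3k.L* and *serpina1.L*, only the last was detected, at 10.43 ± 0.90, with the others at 1.94 to 3.09. In the trio *serpinb10.L*, *serpinb6.L* and *serpinb1.L*, the last 2 were detected. The cathepsin neighbours *ctsl.L* and *ctsh.L* were both detected, at 12.43 ± 0.29 and 9.84 ± 0.79. The neuroserpin gene *serpini1.L* had 13.54 ± 0.22 beside *serpini2.L* at 2.09 ± 0.04.

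Both TIMP genes that had an Xl-PSID with a single symbol were bright. The gene *timp2*, whose protein inhibits MMPs and also takes part in the activation of MMP2 by MMP14, had 13.04, 13.17 and 13.08 on its S Xl-PSID and 12.21, 12.34 and 11.54 on its L Xl-PSID. The gene *timp3*, whose protein stays bound to the matrix, had 11.53, 11.37 and 11.71. Thus *mmp2*, *mmp14* and *timp2* all stood above 12.5 on every array with an SD of at most 0.13 on their brightest Xl-PSIDs.

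Among ADAM genes, 3 of 9 (33.3%) were detected, against 80.5% of all genes. The sheddase gene *adam10*, whose product cleaves Notch receptors, had 13.21, 12.63 and 12.22 on its brightest Xl-PSID. The gene *adam22*, which encodes a synaptic receptor without protease activity, had 9.75, 8.36 and 9.77. The other well-known sheddase gene, *adam17*, was lower and more variable, with 3.84, 5.23 and 6.40. Those not detected were *adam9*, *adam11*, *adam15*, *adam21*, *adam28.2* and *adam33*, at 1.89 to 2.60. The single ADAMTS gene among the members, *adamts1*, encodes an enzyme that cleaves the proteoglycans aggrecan and versican. Its values were 12.61, 12.88 and 11.30, with s50_3 apart from the other pools.

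Tolloid proteases remove the C-terminal propeptides of fibrillar procollagens and cleave the BMP antagonist chordin. Of 4 such genes, 3 (75%) were detected, near the 80.5% of all genes. The intensity of *tll1* was 9.38, 9.39 and 8.91, that of *bmp1* was 8.60, 8.78 and 9.45, and that of *tll2* was 8.87, 9.09 and 6.61. Only *tll2* had a pool that stood well apart, s50_3. Both Xl-PSIDs of *tll2l* lay at the floor, with means of 1.99 and 2.02.

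Of 6 genes for proprotein convertases, 4 (66.7%) were detected, against 80.5% of all genes. The intensity of *furin*, the convertase of the Golgi that activates membrane-type MMPs among many other precursors, was 12.96, 12.70 and 12.72. The gene *pcsk2*, whose product matures peptide hormones in neurons and endocrine cells, had 8.99, 8.79 and 8.57, and *pcsk5* had 7.61, 8.24 and 8.57. Lower down, *pcsk7* had 6.88, 6.66 and 6.18. The genes *pcsk6* (3.43 ± 0.08) and *pcsk4* (1.91 ± 0.01) were not detected. Further serine proteases were *htra1*, a secreted protease of cartilage and bone (10.04, 10.82 and 11.53), and *fap*, the fibroblast activation protein (5.60, 7.33 and 7.80). Both were lowest on s50_1.

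Cathepsins were the largest family with every measured gene detected, against 80.5% of all genes. Of 10 genes, 7 had a mean of at least 12, against 17% of all genes. The cysteine protease gene *ctsb* had 13.88, 13.78 and 13.55 on its S Xl-PSID, *ctsv* had 13.54, 12.95 and 12.67, and *ctsc*, which activates granule proteases of leukocytes, had 13.05, 12.87 and 12.64. The carboxypeptidase gene *ctsa*, which also protects lysosomal galactosidase and sialidase, had 13.24, 12.89 and 12.57. All of these were brightest on s50_1 and dimmest on s50_3. So was *ctsz*, with 13.17, 12.69 and 12.24, whereas the aspartic protease gene *ctsd* had 11.80, 12.09 and 12.26. The gene *ctsl* had 12.43 ± 0.29. The gene *ctss*, used by antigen-presenting cells, had 10.73, 11.15 and 9.97, and *ctse* was the dimmest with 4.18, 5.32 and 5.72. Of the 14 detected cathepsin Xl-PSIDs, 11 lay below their own mean on s50_3, with a median difference of -0.42, 5 on s50_2, with a median difference of 0.04, and 3 on s50_1, with a median difference of 0.31. Over all detected Xl-PSIDs with a symbol, 45.8% lay below their own mean on s50_3, 42.4% on s50_2 and 55.2% on s50_1. These 14 belong to 10 genes, and 3 of them to *ctsv*, so they are not independent.

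Serpins held both the brightest member and 7 genes that were not detected. Of 17 serpin genes, 10 (58.8%) were detected, against 80.5% of all genes. The gene *serpine2*, which encodes protease nexin-1, an inhibitor of thrombin and plasminogen activators, had 14.05, 13.95 and 13.81 on its S Xl-PSID and 13.74, 13.72 and 13.87 on its L Xl-PSID. The neuroserpin gene *serpini1* had 13.55, 13.76 and 13.31. Heparin cofactor II (*serpind1*), a thrombin inhibitor known as a plasma protein from the liver, had 13.16, 13.25 and 13.25, and *serpinf1*, the gene of pigment epithelium-derived factor, had 12.75, 12.68 and 12.93. The SD of these genes was 0.05 to 0.22.

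Several other serpins with a plasma role were at or near the floor. Antithrombin (*serpinc1*) had 2.07 ± 0.05, the cortisol carrier *serpina6* had 1.96 ± 0.02 and the plasmin inhibitor *serpinf2* had 3.37 ± 0.26. The liver markers *fga*, *fgb*, *fgg*, *ttr* and *apoa1* had means of 1.90 to 2.29, and prothrombin (*f2*) had 3.16 ± 0.51. The liver list was summed at 25.83, 25.45 and 27.13 log2 units on the 3 arrays. Its single detected member, *tf*, was bright, with 12.72, 12.58 and 12.82. Apart from *serpind1*, the plasma serpin *serpina1*, α1-antitrypsin, was detected, with 9.38, 10.94 and 10.96.

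Intracellular serpins of clade B followed with 4 of 5 genes detected, near the 80.5% of all genes. The gene *serpinb4* had 11.47 ± 0.30, and *serpinb6*, known from an inherited hearing loss in humans, had 10.71, 11.35 and 11.44. The leukocyte elastase inhibitor gene *serpinb1* had 7.53 ± 0.48, and maspin (*serpinb5*), known from epithelia, had 5.53, 8.21 and 7.55. On s50_3 alone *serpinb10* reached 6.24, against 1.90 and 2.18 on s50_1 and s50_2, and its mean of 3.44 left it not detected. Across the serpins, 10 of 13 detected Xl-PSIDs lay below their own mean on s50_1, against 55.2% of all detected Xl-PSIDs, with a median difference of -0.34. On s50_2 and on s50_3 it was 3 of 13 each, against 42.4% and 45.8%, with median differences of 0.18 and 0.22. These 13 belong to 10 genes, with *serpina1*, *serpine2* and *serpini1* counted more than once, so they are not independent.

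Crosslinking and collagen-modifying enzymes were detected with 1 exception of 8 genes (87.5%, near the 80.5% of all genes). The brightest was *plod3*, a lysyl hydroxylase with glycosyltransferase activity, at 13.54, 13.74 and 13.87. The gene *loxl1*, whose product crosslinks elastin, had 12.60, 13.07 and 12.88, and *tgm2*, a transglutaminase that joins glutamine to lysine residues, had 12.49, 12.47 and 13.09. The lysyl hydroxylase gene *plod1* had 9.75, 10.24 and 9.97, and *p4ha2*, a catalytic subunit of prolyl 4-hydroxylase, had 9.71, 9.45 and 9.48. The gene *loxl2* had 6.21, 6.93 and 8.04, while *lox* itself ran the other way with 7.72, 6.11 and 3.70. No pool showed *loxl3* above the floor (1.85 ± 0.01).

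Genes that work with the members were mostly detected, as were 80.5% of all genes. Of 14 measured matrix substrates, 13 were detected, led by *col9a1* (14.78 ± 0.02), *col2a1* (14.62 ± 0.23) and *col3a1* (13.72 ± 0.09), and *col5a1* was not (3.69 ± 0.80). All 8 measured genes of collagen folding were detected, among them *p4hb*, the partner subunit of prolyl 4-hydroxylase, at 13.72 ± 0.14. The enhancer of tolloid activity *pcolce2* had 13.33 ± 0.36. Among inhibitors outside the member families, 5 of 6 were detected, with the cathepsin inhibitor cystatin C (*cst3*) at 14.49 ± 0.17 and the broad protease trap *a2m* at 14.35 ± 0.17. The Kunitz inhibitor gene *spint2* had 13.53, 12.99 and 7.71. Of 12 other proteases, 8 were detected, among them *capn1*, *capn2* and *lgmn*, which act mainly inside the cell. Growth factors or binding proteins that members process were detected for 5 of 6 genes. Chordin (*chrd.1*, 2.21 ± 0.05) was the exception.

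Over all levels together, spread between pools was close to that of all genes. At means of 4 to 12 it was somewhat larger, in few Xl-PSIDs. This difference was not tested, and without s50_1 the share of members with a wide range was below that of all. Of the 69 detected members, 20 (29.0%) had a range over the pools of 1.5 or more, against 24.8% of all detected Xl-PSIDs with a symbol. The median SD was 0.45 for members and 0.47 for all. By level, 10 of 15 members at means of 4 to 8 had such a range, against 49.6% of all at this level, then 9 of 31 at means of 8 to 12, against 21.8%, and 1 of 23 above that, against 3.49%. The median SD at means of 4 to 8 was 1.15 for members and 0.78 for all. At means of 8 to 12 it was 0.62 and 0.48, and above that 0.22 and 0.23. Without s50_1 the number with a range of 1.5 or more was 6 of 71 (8.45%, against 10.7% of all). Without s50_2 it was 19 of 71 (26.8%, against 20.1%), and without s50_3 it was 10 of 70 (14.3%, against 8.73%).

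**Figure D2:**
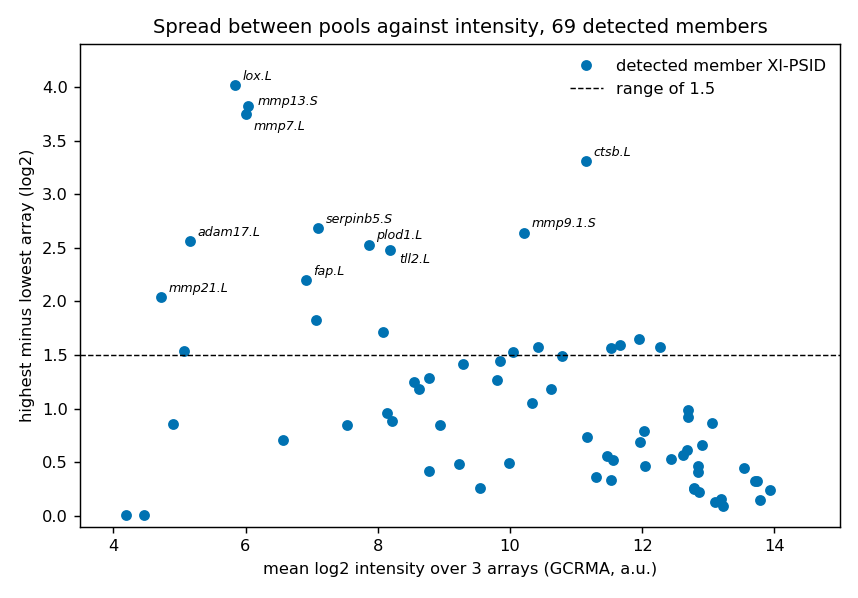
Range between the highest and lowest *s50* array (y axis, log2) against the mean log2 intensity (x axis, GCRMA, arbitrary units) for the 69 detected member Xl-PSIDs. The dashed line marks a range of 1.5, and members with a range of at least 2 are named. One member with a mean above 12, *adamts1.L*, lay above the line, at 1.58.

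Among the 10 members with the largest SD, all but *mmp7.L* fell into a set low on s50_1 or a set low on s50_3. In both sets some were graded over the pools, such as *adam17.L* and *plod1.L*. Low on s50_1 were *mmp13.S*, a collagenase (3.97, 7.79 and 6.38), the gelatinase *mmp9.1.S* (8.65, 11.29 and 10.69), *serpinb5.S*, *adam17.L* and *fap.L*. The difference of s50_1 from the mean of the other pools was -2.34 for *mmp9.1* and -3.11 for *mmp13*. Low on s50_3 were *ctsb.L* (12.53, 11.71 and 9.22), *plod1.L* (9.12, 7.90 and 6.59), *tll2.L* and *lox.L*. The matrilysin gene *mmp7.L* was apart from both, with 8.48 on s50_1 against 4.81 and 4.73. Its other Xl-PSID was at the floor on every array (2.02 ± 0.04). In all, s50_1 was 1.5 or more below the average of the other pools for 7 of 69 detected members (10.1%), against 4.95% of all detected Xl-PSIDs with a symbol. Beyond those named, this set held *mmp28.S* and *serpina1.L*. For s50_2 it was 1 member (*mmp7.L*, against 2.17%) and for s50_3 5 (against 8.7%). A deviation of that size upward was seen for 6 members on s50_1 (*mmp7.L*, *lox.L*, *ctsb.L*, *plod1.L* and a pair for *ctsv.L*, against 6.99%), for 3 on s50_2 (*mmp13.S*, *serpinb5.S* and *mmp9.1.S*, against 2.16%) and for 2 on s50_3 (*adam17.L* and *mmp21.L*, against 4.38%). The lowest pool was s50_1 for 31 detected members (44.9%, against 44.8% of all), s50_2 for 11 (15.9%, against 19.3%) and s50_3 for 27 (39.1%, against 35.9%).

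Summed over their lists, markers of leukocytes, muscle, epidermis and bone were also lowest on s50_1. All 5 detected leukocyte markers of 8 measured lay below their own mean there, as did 55.2% of all detected Xl-PSIDs with a symbol. The widest gaps were those of *mpo*, myeloperoxidase of granulocytes (3.77, 7.10 and 7.86), and the leukocyte actin regulator *coro1a* (4.57, 6.21 and 7.27). For *lcp1* the values were 6.07, 7.08 and 7.10. The brighter *cd74* (10.98, 11.42 and 10.95) was lowest on s50_3, and *lyz* (8.60, 8.55 and 8.78) was lowest on s50_2. The summed log2 intensity of the 8 was 40.34, 46.67 and 48.63. Their defining gene *ptprc* was at the floor (2.03 ± 0.04), as was *tyrobp* (1.98 ± 0.02), and *itgb2* was not detected, with 2.41, 2.27 and 2.61. All 7 detected muscle markers of 9 were below their mean on s50_1 as well, with sums of 85.43, 95.49 and 96.73 and with *myod1* and *myf5* at 2.02 and 2.01. For epidermis the sums were 84.67, 85.14 and 88.46, 6 of 11 markers were detected, and *tp63* (2.09 ± 0.05) was at the floor. For bone the sums were 13.4, 14.3 and 15.4, and 1 of 3 markers, *alpl*, was detected. On s50_3 the 3 supporting cell markers were all below their mean, with sums of 35.97, 35.70 and 32.59. So were 6 of 8 detected neuronal markers, with sums of 99.65, 97.00 and 93.79 over the 9 measured. Of all detected Xl-PSIDs with a symbol, 45.8% were below their mean on s50_3. Further lists had their lowest sum on s50_3 too. These were Schwann cell (41.66, 41.06 and 40.63), cartilage (94.85, 95.30 and 93.49), endothelium (29.73, 30.37 and 28.91) and erythroid (73.62, 75.53 and 72.36). The 7 fibroblast and perichondrium markers had sums of 81.30, 76.08 and 75.63, with *twist1* at 7.49, 3.51 and 2.33. Their median difference from their own mean was 0.06, -0.07 and 0.06, so the list as a whole was not higher on s50_1. On that array 3 of the 7, *col1a1*, *col1a2* and *col3a1*, were at their lowest. The part of these cell types in the values of the members was not tested.

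**Figure D3:**
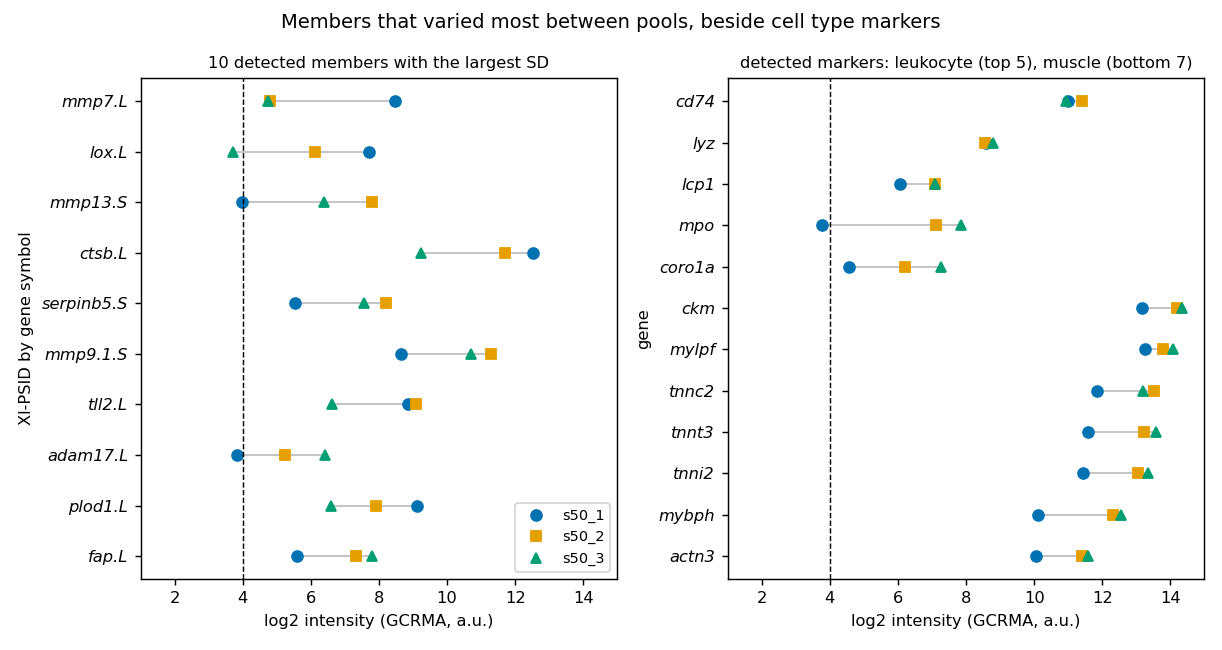
Log2 intensity (x axis, GCRMA, arbitrary units) on each *s50* array of the 10 detected member Xl-PSIDs with the largest SD (left) and of the detected leukocyte and skeletal muscle markers (right). Circles are s50_1, squares s50_2 and triangles s50_3, and the dashed line is the threshold of 4. The circle is the leftmost symbol for *mmp13.S*, *mmp9.1.S*, *serpinb5.S*, *adam17.L* and *fap.L*, as it is for all 7 muscle markers.

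Xl-PSIDs annotated to the same gene often disagreed. Of 35 member genes with several Xl-PSIDs, 18 had some detected and some not, against 32.5% of all genes with several. In 13 of the 35 genes the means differed by at least 6, and the share of such genes over all was not computed. For *adam10.S* the bright Xl-PSID had 12.69 ± 0.50 and the other 2 had 2.53 ± 1.18 and 3.00 ± 0.33. For *serpinh1*, which encodes the collagen chaperone HSP47, 1 of 5 Xl-PSIDs was detected, with 10.90, 11.62 and 12.49, and the other 4 lay between 1.76 and 3.40. Other wide gaps were those of *ctsv* (2.18 and 13.05), *furin* (1.94 and 12.79), *ctsc* (2.20 and 12.85), *ctsd* (2.08 and 12.05), *mmp14* (3.75 and 12.86), *timp3* (3.04 and 11.53) and *mmp28* (2.09 and 10.34). The remaining 4 were *serpind1*, *ctsz*, *serpina1* and *pcsk5*. A gene that stands on a single dark Xl-PSID, as do *mmp3*, *mmp11* and *loxl3*, was therefore only shown to be dark on that Xl-PSID.

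Part of this disagreement lay between homeologs, the L and S copies of a gene that the allotetraploid *X. laevis* carries. Among 21 member genes measured on both, 11 had both detected, 8 had one and 2 had none. Over all genes with both, 14.3% had just one detected. The largest differences between the brightest L and S Xl-PSIDs were those of *furin* (12.79 for L and 2.08 for S), *serpind1* (13.22 for L and 3.46 for S), *ctsz* (3.78 for L and 12.70 for S), *serpinh1* (3.19 for L and 11.67 for S) and *serpina1* (10.43 for L and 2.65 for S). The L copy was brighter in 11 of the 21, counting *adam33* and *mmp8*, where both copies were at the floor and cannot be ordered. Over all genes with both it was brighter in 1084 of 2011, a similar share. Probes of the 2 copies may bind differently. Some of these Xl-PSIDs, among them those of *serpinh1.L* and *serpina1.L*, are marked as matching several transcripts. These values therefore do not order the copies by transcript level. For *ctsz.L*, within 0.25 of the threshold, the pools had 5.60, 3.70 and 2.04, and for *ctsb* the L Xl-PSID had a range of 3.31, while that of the S Xl-PSID was 0.33. Both *ctss* Xl-PSIDs were lowest on s50_3, with 8.89, 9.07 and 7.89 for L. The other members within 0.25 of the threshold were 2 Xl-PSIDs of *bmp1.S*, at 3.97 ± 0.28 and 4.19 ± 0.01.

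**Figure D4:**
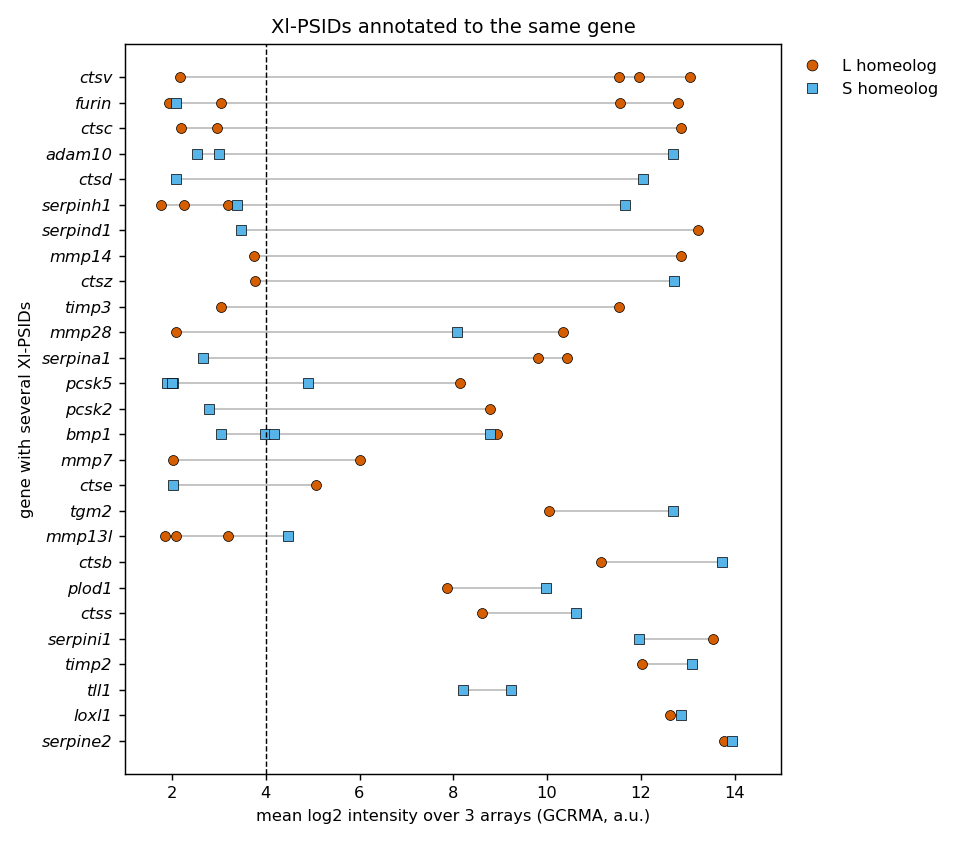
Mean log2 intensity over the 3 *s50* arrays (x axis, GCRMA, arbitrary units) of every Xl-PSID of the 27 member genes that have several Xl-PSIDs and at least 1 detected (y axis, sorted by the distance between the outer ones). Circles are Xl-PSIDs of L homeologs, squares those of S homeologs, and the dashed line is the threshold of 4. In 18 of these genes the Xl-PSIDs lie on both sides of the line.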

How the data were processed

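Inner ear RNA of 3 pools of *s50* larvae was hybridized to Affymetrix *X. laevis* Genome 2.0 arrays. In JMP Genomics the authors applied GCRMA, and for each array they deposited 1 log2 intensity per Xl-PSID. The sources used here do not say whether GCRMA covered these arrays alone. Arrays of other stages were not analysed here. The deposited values were used without further normalization, and with 3 arrays their precision is low.

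Symbols came from the platform annotation, and all 131 gene IDs of members matched the RefSeq table (assembly 10.1) with the same symbol. That table also gave the order of neighbouring protein-coding genes, with members at most 10 genes apart called neighbours. Homeologs were joined per gene. No coordinates or sequences are given. Values on each array were printed for up to 4 detected genes of a family, the 10 detected Xl-PSIDs with the largest SD, members within 0.25 of the threshold, genes whose Xl-PSIDs differed by at least 6, the 5 largest homeolog differences, *fap* and *serpinh1*. Further genes were named after their values were seen. The members and lists were chosen with earlier results of these data known. Alternatives were other thresholds, the median of the arrays, quantile normalization, averaging the Xl-PSIDs of a gene, fewer Xl-PSIDs and leaving out each array. Summaries were tested on simulated data and made with Python 3.11.15, NumPy 2.4.6 and pandas 2.3.3.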

Additional observations from a re-analysis of the deposited data

How the results depend on the processing

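No paired analysis was possible because the series holds a single group. The number of member genes detected was 49 to 56 under all alternatives, and the number of member Xl-PSIDs detected was 61 to 84. The 61 were out of fewer Xl-PSIDs, since those marked as matching several transcripts were left out. With all 131 kept, the lowest number was 65, at a threshold of 5. At a threshold of 3, 64.1% of member Xl-PSIDs were detected, against 76.7% of all with a single symbol. At a threshold of 5 the share was 49.6%, against 70.2%. With at least 4 on every array it was 50.4%, against 70.2%. When an array was left out it was 53.4% to 54.2%, against 72.9% to 73.5%. It was 53.4% with the median of the arrays and 54.96% without Xl-PSIDs marked as matching several transcripts. The median intensity of the member genes was 8.78 with the median of the arrays, 8.55 when those were left out, 6.71 when all Xl-PSIDs of a gene were averaged (8.52 for all genes) and 8.54 to 8.81 when an array was left out. Of the 42 genes followed by name, 21 moved by more than their SD when their Xl-PSIDs were averaged, and none did with quantile normalization. Averaging cannot move a gene with a single Xl-PSID. All 21 were therefore genes with several, and most of the named genes with several moved. With 3 arrays, the median or leaving out an array cannot move a mean by its SD, so those settings say nothing of stability here, and *mmp7* was 4.77 without s50_1. The number of detected members with a range of at least 1.5 was 6 to 19 when an array was left out, lowest without s50_1, and a range of at least 2 was reached by 11. The median difference of the detected members from their own means was 0.040 on s50_2, where it stayed positive under all alternatives, and changed sign on the other arrays. It was -0.008 on s50_1 (3.33e-06 at a threshold of 5 and -0.043 with quantile normalization) and -0.014 on s50_3 (0.00553 at a threshold of 3 and 0.011 with quantile normalization). The cause was not tested. Depth does not apply to arrays. Values below about 2.5 have no order among themselves, and raw scans were not analysed here.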
